A study of Mus musculus with 4 samples.

Results

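Genes that bring fatty acids into cells were followed across dermal white adipose tissue (dWAT) of old and young mice in the resting and growing phases of the hair cycle. The 10 genes were chosen by symbol for their known role, with no measured value in the rule: Lpl, Gpihbp1, Angptl4, Vldlr, Cd36, Slc27a1, Slc27a4, Fabp4, Fabp5 and Acsl1. All 10 were found among the 22913 genes of the files, and all 10 passed the filter on low values used here, an FPKM of at least 1 in 1 of the 2 libraries compared. FPKM (fragments of a gene scaled to its length and to the size of the library) is meant to take out both. How the deposited values were scaled is not given, so levels are set beside each other between genes with that limit.

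The mice were C57BL/6. OTD was dWAT of old mice (18 months) in telogen, the resting phase of HFs (hair follicles), and YTD was dWAT of young mice (2 months) in telogen. OAD and YAD were the matching old and young tissues in anagen, the growth phase, which was induced by depilation. Each sample was whole dWAT, isolated by microdissection away from the fat and muscle layers beneath it, and it holds all cell types of that layer. Material of several mice went into each group. Ages follow the sample titles and the treatment text. The age field of the labels disagrees for YTD, where it reads 18 months, and for OAD, where it reads 2 months. Sex was not given.

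Adipocytes take up most of their fatty acids from lipoproteins in the blood. Lipoprotein lipase splits the triglycerides on the capillary wall, where the endothelial protein GPIHBP1 holds it, and ANGPTL4 inactivates it. The released fatty acids cross the membrane with the help of CD36 and the transport proteins of the Slc27a family, are carried through the cytoplasm by fatty acid binding proteins, and are activated to acyl-CoA by synthetases such as ACSL1. Keratinocytes of the epidermis and HF use other members of the same families, among them FABP5 and FATP4, the protein of Slc27a4, which the skin barrier needs.

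Each group held 1 library, so no replicate spread exists, no test between groups was possible and no p-value is given. Depth was not stated with the values. It was estimated roughly from the lowest FPKM values, and the 95% intervals given below cover counting error at that depth and nothing else. At that depth, the fewest fragments behind any value of the 10 genes were 204 (Angptl4 in YTD). The summed FPKM was higher in telogen (1249613 in OTD and 1245973 in YTD) than in anagen (814616 in OAD and 693715 in YAD), and genes of the mitochondrial genome held 14.4% to 18.3% of it in anagen but 44.7% to 52.7% in telogen. A difference between phases therefore depends on how libraries are scaled, and values that change with the scaling are named below. In bulk tissue, fewer cells of a type and less RNA per cell cannot be told apart.

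The adipose label could be checked against markers. All 15 adipocyte markers were above 4 FPKM in the 4 libraries, with Cfd, the adipocyte-secreted complement factor D, at 3401 FPKM in OTD and 3216 in YTD, against 1070 in OAD and 671 in YAD. Genes of other tissues were detected too. Acta1, the actin of skeletal muscle, stood at 17991 FPKM in OTD and 27442 in YTD, against 4106 in OAD and 2919 in YAD, and Tchh, the trichohyalin of growing hair, at 32.2, 51.8, 4477 and 2693 FPKM in the same order.

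Fabp4 and Fabp5 are near each other but not adjacent. Both lie on chromosome 3 of GRCm38, Fabp5 (ENSMUSG00000027533) at chr3:10012548-10016607 on the plus strand and Fabp4 (ENSMUSG00000062515) at chr3:10204088-10208576 on the minus strand, with 191.5 kb between their lower ends. Their coding sequences in GENCODE M21 are 399 bases (Fabp4) and 408 bases (Fabp5) long and were identical at 248 of 399 aligned bases (62.2%), with no identical run over 12 bases. The first 90 bases of the second coding exon are shown because the results below turn on telling both transcripts apart. Capitals mark the 38 bases that differ. The Fabp4 stretch is chr3:10206033-10206122 (minus strand, coding bases 74 to 163) and the Fabp5 stretch is chr3:10014971-10015060 (plus strand, coding bases 80 to 169).
Fabp4: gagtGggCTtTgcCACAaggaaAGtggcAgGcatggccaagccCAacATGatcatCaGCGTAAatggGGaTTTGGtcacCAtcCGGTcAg
Fabp5: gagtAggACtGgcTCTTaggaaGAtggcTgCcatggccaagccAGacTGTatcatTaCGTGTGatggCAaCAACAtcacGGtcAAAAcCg

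No stretch of 50 bases in the coding sequence of Fabp4 occurred in a transcript of another annotated gene, and the same held for the other members except Fabp5. Of the 359 stretches of 50 bases in the Fabp5 coding sequence, 198 (55.2%) also occurred in at least 1 of 5 processed pseudogenes, most of them in Gm6166 (184 stretches). None of the 5 pseudogenes is among the genes of the files, so reads that fit both could have been counted for Fabp5 or left out, and the level of Fabp5 is uncertain to that extent. The part of the pseudogenes in the Fabp5 values was not tested. The span of no member overlaps that of another listed gene.

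Slc27a1 and Slc27a4 are on different chromosomes. Slc27a1 (ENSMUSG00000031808) lies at chr8:71568927-71586708 and Slc27a4 (ENSMUSG00000059316) at chr2:29802634-29817522, both on the plus strand, and their coding sequences, of 1941 and 1932 bases, were identical at 67.2% of the aligned bases. RefSeq promoters (GRCm38.p6, 250 bases before to 50 bases after a start) were in the table used for 5 of the 10 members, namely Cd36, Slc27a1, Slc27a4, Acsl1 and Vldlr, with 9 starts in all. The promoters of Slc27a1 and Slc27a4 are shown because these paralogs differed in opposite directions between the phases in the deposited FPKM, and that of Cd36 because Cd36 had the lowest anagen to telogen ratio of the members in old dWAT. The Slc27a1 promoter is chr8:71568621-71568920 (plus strand, the start nearest to the gene's listed start of 3), the Slc27a4 promoter is chr2:29802384-29802683 (plus strand) and the Cd36 promoter is chr5:17835847-17836146 (minus strand, at a start inside the listed span of the gene). Capitals mark matches to 5 short motifs, searched on either strand. The TATA box was searched for by its letters TATAAA. The GC box, which binds Sp1, was searched for as GGGCGG. The CCAAT box was searched for by the letters in its name. The hexamer bound by nuclear receptors was searched for as AGGTCA, and the AP-1 site of Fos and Jun was searched for by its letters TGAGTCA.
Slc27a1: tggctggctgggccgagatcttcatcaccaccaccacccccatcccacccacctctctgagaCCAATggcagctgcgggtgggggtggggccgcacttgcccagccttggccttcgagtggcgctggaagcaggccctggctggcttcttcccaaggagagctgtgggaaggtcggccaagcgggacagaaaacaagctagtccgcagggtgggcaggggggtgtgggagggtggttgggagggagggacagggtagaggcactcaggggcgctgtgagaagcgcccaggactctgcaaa
Slc27a4: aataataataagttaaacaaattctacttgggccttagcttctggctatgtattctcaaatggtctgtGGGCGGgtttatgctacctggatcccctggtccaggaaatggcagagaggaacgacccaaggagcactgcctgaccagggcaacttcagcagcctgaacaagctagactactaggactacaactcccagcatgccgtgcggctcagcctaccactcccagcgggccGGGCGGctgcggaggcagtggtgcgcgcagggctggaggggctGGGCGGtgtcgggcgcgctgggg
Cd36: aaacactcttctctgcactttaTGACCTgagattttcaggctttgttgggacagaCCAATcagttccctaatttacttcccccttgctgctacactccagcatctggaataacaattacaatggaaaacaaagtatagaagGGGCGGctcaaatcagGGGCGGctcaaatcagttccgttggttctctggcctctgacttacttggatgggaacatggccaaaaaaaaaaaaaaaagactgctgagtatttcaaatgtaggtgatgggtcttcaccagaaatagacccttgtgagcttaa

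The Slc27a1 promoter shown held 1 CCAAT box and no other match. Of the Slc27a1 promoters not shown, that at chr8:71569347-71569646 held 1 GC box. That at chr8:71570344-71570643 held 3 GC boxes and 1 CCAAT box, so the matches of Slc27a1 depend on the start chosen. The Slc27a4 promoter held 3 GC boxes and no other match. The Cd36 promoter held 2 GC boxes, 1 CCAAT box and 1 nuclear receptor hexamer, the last of them on the other strand. None of the marked matches overlapped. Of 32851 promoters in the table, 35.7% held the GC box, 37.4% the CCAAT box, 16.3% the nuclear receptor hexamer, 13.6% the TATA box and 5.20% the AP-1 site, so these letters are common in windows of this length. GC content was 65.7% for Slc27a1, 58.7% for Slc27a4 and 43% for Cd36, against a median of 52.7% over the table.

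The order of the levels differed between the phases. In OTD, Fabp4 was the highest of the 10 and was followed by Cd36, Lpl, Fabp5, Slc27a1, Acsl1, Gpihbp1, Vldlr and Angptl4, with Slc27a4 the lowest. In YTD the order was the same except that Lpl stood above Cd36 and Acsl1 above Fabp5 and Slc27a1. In YAD, Fabp5 was the highest, before Fabp4, Lpl, Cd36, Slc27a4, Acsl1, Slc27a1, Gpihbp1 and Angptl4, with Vldlr the lowest. OAD differed from YAD in having Fabp4 above Fabp5 and Slc27a4 above Cd36. Together the 10 genes made up between 0.222% (YTD) and 0.327% (YAD) of all FPKM. With no replicates, no spread says which neighbours in these orders differ.

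**Figure D1:**
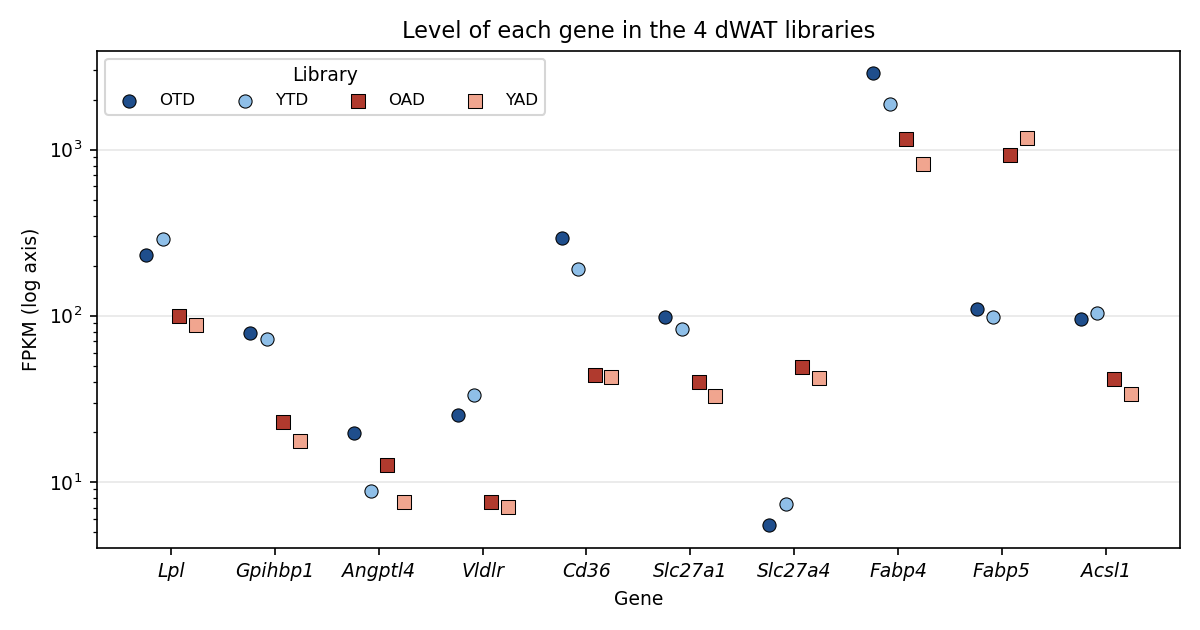
FPKM of each of the 10 genes (log axis) in OTD, YTD, OAD and YAD, 1 point per library. In 7 genes the telogen point (circle) lies at more than 2-fold the anagen point (square) of the same age, Fabp5 and Slc27a4 lie higher in anagen, and for Angptl4 the old libraries lie above the young ones in each phase.

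Lpl (ENSMUSG00000015568, chr8:68880491-68906934, plus strand) encodes lipoprotein lipase, which releases fatty acids from circulating triglycerides. Its level was 231.3 FPKM in OTD and 289.7 in YTD, against 99.6 in OAD and 87.7 in YAD. Both telogen libraries were above both anagen libraries, and the age order was not the same in the phases: YTD was above OTD, and OAD above YAD. Young dWAT had 3.30-fold less Lpl in anagen than in telogen and old dWAT 2.32-fold less. On the log2(FPKM + 1) scale these differences were -1.71 and -1.21, the latter turning to 0.25 when libraries were scaled on adipocyte markers. The age difference was -0.32 in telogen and 0.18 in anagen, and the anagen value changed sign under TPM (-0.05) and adipocyte-marker scaling (-0.17).

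Gpihbp1 (ENSMUSG00000022579, chr15:75596628-75599481, plus strand) encodes the anchor that brings lipoprotein lipase to the capillary lumen. Its level was 78.4 FPKM in OTD and 72.6 in YTD, against 22.8 in OAD and 17.7 in YAD. Telogen exceeded anagen 4.11-fold in young and 3.44-fold in old dWAT, with log2 differences of -1.98 and -1.74, and this direction held in all scalings tried. Gpihbp1 was higher in old than in young dWAT in both phases, by a log2 difference of 0.11 in telogen, where the counting interval of the log2 ratio (-0.02 to 0.24) included 0 and adipocyte-marker scaling gave -0.02, and by 0.35 in anagen (interval 0.14 to 0.59).

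Angptl4 (ENSMUSG00000002289, chr17:33773750-33781575, minus strand) encodes the inhibitor of lipoprotein lipase, a known target gene of fatty acid receptors, glucocorticoids and hypoxia. Its level was 19.8 FPKM in OTD and 8.80 in YTD, against 12.5 in OAD and 7.59 in YAD. The old libraries were the 2 highest and the young libraries the 2 lowest. OTD was 2.25-fold above YTD and OAD 1.65-fold above YAD, and the log2 differences were 1.09 and 0.66, with counting intervals of the log2 ratio of 0.93 to 1.42 and 0.48 to 0.97. No other member reached a log2 difference of 1 between the ages in either phase. The order of old above young in both phases held in each scaling, although adipocyte-marker scaling brought the telogen difference of Angptl4 to 0.92, under 1. Among all genes past the filter on low values, the Angptl4 difference ranked 216 of 12982 in telogen and 372 of 13068 in anagen, counted from the highest. Between phases Angptl4 differed less, by -0.19 in young and -0.62 in old dWAT, and both values turned positive under adipocyte-marker scaling (1.33 and 0.76), the young one also under TPM (0.57) and the sum without mitochondrial genes (0.0012).

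Vldlr (ENSMUSG00000024924, chr19:27217020-27254231, plus strand) encodes the very low density lipoprotein receptor, which binds triglyceride-rich particles and works beside lipoprotein lipase in fat. Its level was 25.1 FPKM in OTD and 33.1 in YTD, against 7.56 in OAD and 7.08 in YAD. Telogen exceeded anagen 4.68-fold in young and 3.33-fold in old dWAT (log2 differences of -2.08 and -1.61), in all scalings tried. In telogen Vldlr was lower in old dWAT by a log2 difference of -0.38, and in anagen the difference was 0.08, with a counting interval of the log2 ratio that included 0 (-0.09 to 0.28) and a sign that TPM, the sum without mitochondrial genes and adipocyte-marker scaling turned.

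Cd36 (ENSMUSG00000002944, chr5:17781690-17888959, minus strand) encodes the scavenger receptor that carries long-chain fatty acids across the membrane of adipocytes, capillary endothelium and macrophages. Its level was 295.3 FPKM in OTD and 191.5 in YTD, against 44.2 in OAD and 43.0 in YAD. The anagen libraries were close to each other, while OTD was 1.54-fold above YTD. Telogen exceeded anagen 4.46-fold in young and 6.68-fold in old dWAT, and the log2 difference of -2.71 in old dWAT stood at percentile 0.953 of all 13847 genes compared there. The age difference on the log2 scale was 0.62 in telogen (counting interval 0.57 to 0.68) and 0.04 in anagen (-0.06 to 0.15), the latter negative under TPM, the sum without mitochondrial genes and adipocyte-marker scaling.

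Of the Slc27a transporters, Slc27a1 encodes FATP1, the form of fat and muscle. Its level was 98.0 FPKM in OTD and 83.5 in YTD, against 39.8 in OAD and 32.8 in YAD. It was lower in anagen 2.55-fold in young and 2.46-fold in old dWAT, by log2 differences of -1.32 and -1.28 that became 0.34 and 0.17 under adipocyte-marker scaling. Old dWAT had more Slc27a1 in each phase, by 0.23 in telogen and 0.27 in anagen, and only the anagen value changed sign in a scaling (-0.08 with adipocyte markers).

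Slc27a4 encodes FATP4, the form of the epidermis and gut. Its level was 5.48 FPKM in OTD and 7.40 in YTD, against 49.3 in OAD and 42.0 in YAD. Both anagen libraries were far above both telogen libraries, 5.68-fold in young and 8.99-fold in old dWAT, with log2 differences of 2.36 and 2.96 that were positive in all scalings. The age difference was -0.37 in telogen and 0.22 in anagen, and the anagen value turned under TPM (-0.0019) and adipocyte-marker scaling (-0.13).

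Fabp4, the fatty acid binding protein of adipocytes and capillary endothelium, was the most abundant member in 3 of the 4 libraries. Its level was 2880 FPKM in OTD and 1873 in YTD, against 1155 in OAD and 822 in YAD, so that OTD was the highest and YAD the lowest. It was lower in anagen 2.28-fold in young and 2.49-fold in old dWAT (log2 differences of -1.19 and -1.32), except under adipocyte-marker scaling, which gave 0.51 and 0.15. Old exceeded young 1.54-fold in telogen and 1.41-fold in anagen, with log2 differences of 0.62 and 0.49, positive in each scaling.

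Fabp5, the fatty acid binding protein of keratinocytes, also made by macrophages and endothelium, went the other way. Its level was 109.2 FPKM in OTD and 98.6 in YTD, against 929.2 in OAD and 1177 in YAD. Anagen exceeded telogen 11.9-fold in young and 8.51-fold in old dWAT, the log2 differences of 3.56 and 3.08 ranking 345 of 13738 and 524 of 13847 from the highest. In anagen old dWAT had less Fabp5 than young dWAT (-0.34). In the deposited FPKM it was the only member below 0 there, while 5 members were below 0 under TPM and 7 under adipocyte-marker scaling. In telogen the difference was 0.15, with a counting interval of the log2 ratio from 0.01 to 0.29, and adipocyte-marker scaling gave 0.0143.

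Acsl1 (ENSMUSG00000018796, chr8:46471041-46536051, plus strand) encodes the main long-chain acyl-CoA synthetase of adipocytes, which traps fatty acids as acyl-CoA. Its level was 96.1 FPKM in OTD and 103.6 in YTD, against 41.5 in OAD and 33.7 in YAD. It was lower in anagen 3.07-fold in young and 2.31-fold in old dWAT, with log2 differences of -1.59 and -1.19 that became 0.07 and 0.25 under adipocyte-marker scaling. The age difference was -0.11 in telogen, turning to 0.11 when scaled to the sum without mitochondrial genes, and 0.29 in anagen, turning to -0.06 with adipocyte markers.

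The first comparison asked how old dWAT differed from young dWAT at each phase. In telogen 1 of 10 members, Angptl4, was higher in OTD by a log2 difference of at least 1, where 2.21% of 12982 genes were, and none was lower, where 2.57% of genes were. Under adipocyte-marker scaling no member passed in telogen, where 1.09% of all genes were higher and 2.90% lower in OTD. In anagen no member passed in either direction, where 0.979% of 13068 genes were higher and 0.612% lower in OAD. The median difference of the members was 0.13 in telogen and 0.25 in anagen, beside -0.06 and -0.00 over all genes compared. In telogen 6 of 10 members were above 0, as were 5716 of 12982 genes. In anagen 9 of 10 members and 6524 of 13068 genes were above 0. The 9 members became 5 under TPM, 7 with the sum without mitochondrial genes and 3 under adipocyte-marker scaling. The anagen median of all genes compared fell as well in these rescalings, to -0.211, -0.146 and -0.334 in the same order. The median of the members minus that of all genes was 0.235, 0.235 and 0.233 there, beside 0.250 in the deposited FPKM. Each rescaling divides a library by 1 factor and shifts members and all genes by nearly the same amount. That difference could therefore hardly have moved and is no check on the signs. Angptl4, Fabp4, Gpihbp1, Slc27a1 and Cd36 were above 0 in both phases, of which Angptl4 and Fabp4 kept that sign in both phases in each scaling. Lpl, Slc27a4, Acsl1 and Vldlr were below 0 in telogen and above 0 in anagen, and Fabp5 the reverse.

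**Figure D2:**
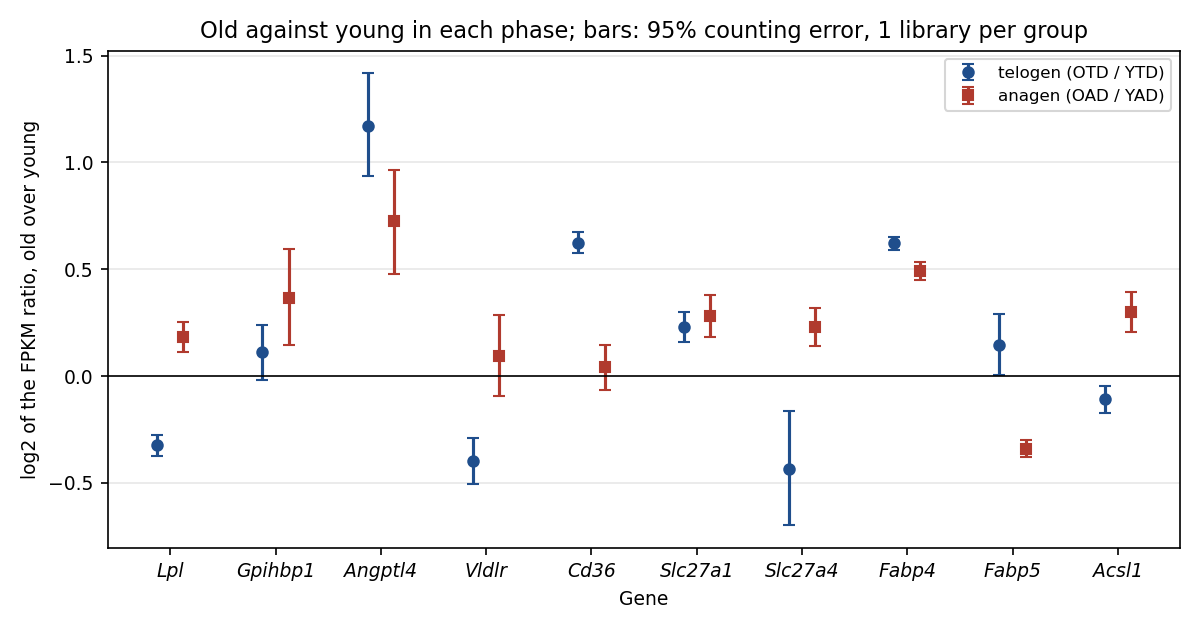
Log2 of the old over young FPKM ratio of each gene in telogen (OTD over YTD) and anagen (OAD over YAD), with bars for the 95% counting interval at the estimated depth, which holds no variation between animals. Angptl4 has the highest ratio in both phases, and Lpl, Slc27a4, Acsl1 and Fabp5 have intervals on opposite sides of 0 in the phases; scaling on adipocyte markers turns the anagen sign of Lpl, Slc27a4 and Acsl1, TPM that of Lpl and Slc27a4, and the sum without mitochondrial genes the telogen sign of Acsl1.

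Markers of other cells moved with age as well. All 12 capillary endothelium markers were higher in OTD than YTD (median 0.58) and all 12 higher in OAD than YAD (median 0.30), with summed levels of 685 FPKM in OTD and 451 in YTD, against 178 in OAD and 135 in YAD. For macrophages, 13 of 14 measured markers stood above 0 in telogen (median 0.42), whereas 10 of 11 stood below 0 in anagen (median -0.26). The 15 adipocyte markers had medians of 0.26 and 0.22, and their summed level was 5389 FPKM in OTD and 5117 in YTD, against 1804 in OAD and 1293 in YAD. For skeletal muscle, the 15 markers all stood below 0 in telogen (median -0.70) and 13 of them above 0 in anagen (median 0.42), the list summing to 69690, 109316, 16595 and 12323 FPKM. Markers of dermal fibroblasts had medians of 0.55 and -0.47 in telogen and anagen. The hair shaft list had the largest median in telogen, -1.13, with all 13 measured markers lower in OTD and 9 of them past the threshold, and a median of -0.16 in anagen, where 11 of 14 were lower in OAD. For epidermis and outer root sheath, 8 of 10 were lower in OTD (median -0.55) and 9 of 11 higher in OAD (median 0.30). Sebaceous gland markers had medians of 0.46 and 0.08. The part of these cells in the age differences of Slc27a4, Fabp5, Cd36, Fabp4, Gpihbp1 and the other members was not tested.

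Set against Adipoq or Pecam1 in the same library, a measure that no scaling of libraries can change, the members gave the following ratios. Each library mixes cell types, and Fabp4 and Cd36 are made by more than 1 of them. None of these ratios, that of Lpl included, can be read as the value of a single type. Fabp4 to Adipoq, the adipocyte hormone adiponectin, was 6.74 in OTD and 6.68 in YTD, and 11.2 in OAD and 10.7 in YAD. Lpl to Adipoq was 0.542 in OTD and 1.03 in YTD, against 0.964 in OAD and 1.15 in YAD, so that the young library stood 1.91-fold higher in telogen and 1.19-fold higher in anagen. The direction depends on the marker chosen. Between the ages in telogen Adipoq differed by 0.60, beside a median of 0.26 over the 15 adipocyte markers, 10 of them above 0. Thrsp (-0.87) and Lep (-0.50) were lower in old dWAT by more than Lpl (-0.32), so a ratio to either would point the other way. Gpihbp1 to Pecam1, the endothelial adhesion molecule, was 0.659 in OTD and 1.05 in YTD, against 0.954 in OAD and 0.966 in YAD, with OTD the lowest. That order depends on the marker too. Between phases in old dWAT the endothelium markers differed by -2.49 to -1.20, and Gpihbp1, at -1.74, lay inside that range. Cd36 to Pecam1 was 2.48 in OTD and 2.77 in YTD, against 1.85 in OAD and 2.35 in YAD.

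The second comparison set anagen against telogen at each age. In young dWAT 2 of 10 members, Fabp5 and Slc27a4, were higher in YAD by a log2 difference of at least 1, where 20.6% of 13738 genes were, and 7 were lower, where 21.4% of genes were. In old dWAT the same 2 members were higher in OAD, where 20.6% of 13847 genes were, and the same 7 were lower, where 19.9% of genes were. The 7 were Lpl, Gpihbp1, Cd36, Fabp4, Slc27a1, Acsl1 and Vldlr, of which Fabp4, Slc27a1 and Acsl1 at both ages and Lpl in old dWAT were above 0 under adipocyte-marker scaling, by 0.07 to 0.51. The 7 lower calls became 3 at each age under TPM, and 0 in young and 1 in old dWAT under adipocyte-marker scaling. The median of the members was -1.46 in young and -1.24 in old dWAT, beside 0.03 and 0.05 over all genes compared. The comparisons across age and phase share libraries, so they are not independent of each other.

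**Figure D3:**
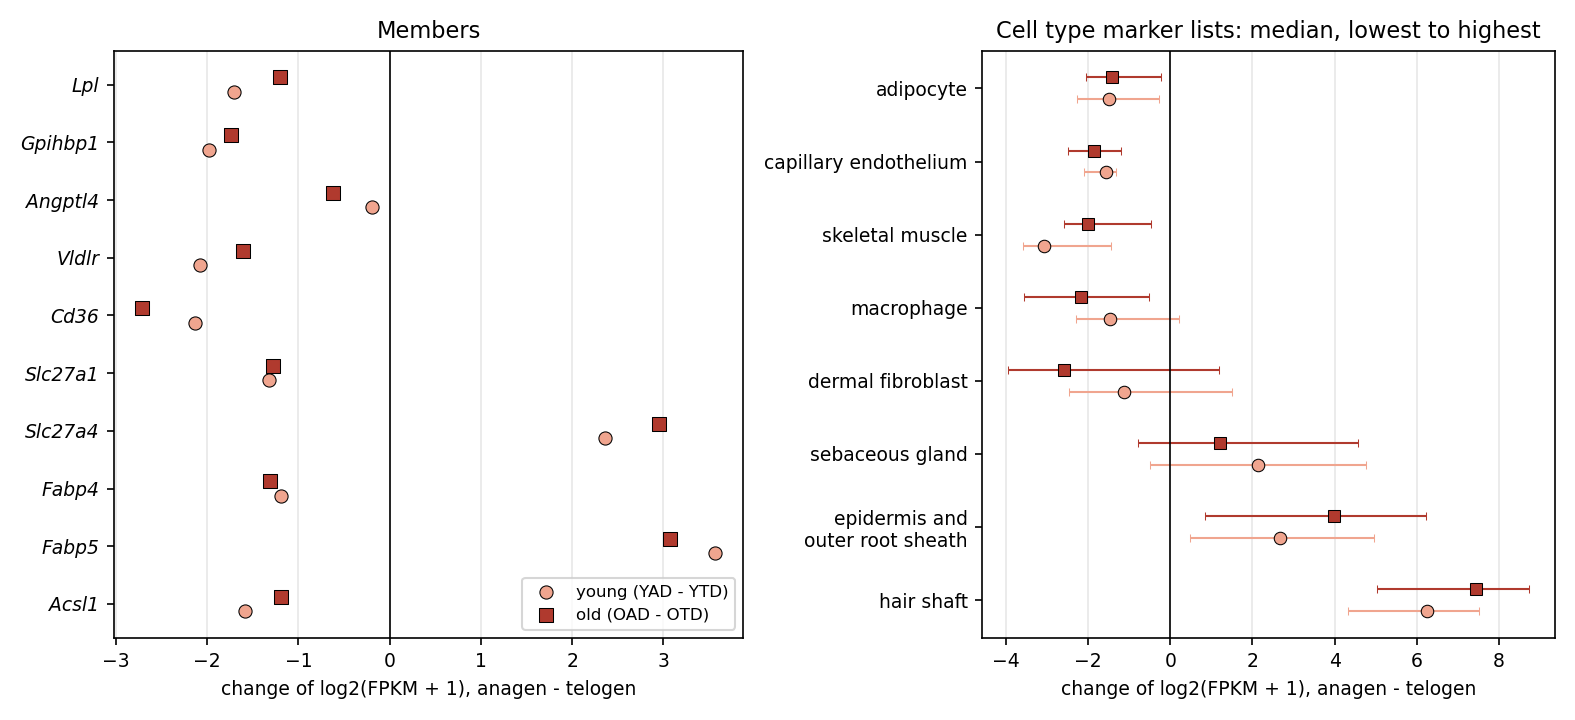
Anagen minus telogen difference of log2(FPKM + 1) for each member (left) and for 8 cell type marker lists (right: point, median; bar, lowest to highest gene) in young and old dWAT. The 7 members below -1 lie on the side of the adipocyte and endothelium lists, and Fabp5 and Slc27a4 lie on the side of the epidermis and hair lists; scaling on adipocyte markers moves Lpl in old dWAT, and Fabp4, Slc27a1 and Acsl1 at both ages, above 0.

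In the deposited FPKM, markers moved with the phase in both directions. All 15 adipocyte markers were lower in anagen at both ages, with medians of -1.495 in young and -1.43 in old dWAT, and so were all 12 endothelium markers, with medians of -1.57 and -1.85. In young dWAT 7 members lay within the range of the adipocyte markers (-2.26 to -0.28), and Fabp5, Slc27a4 and Angptl4 lay above it. In old dWAT 7 lay within their range (-2.04 to -0.22), Cd36 lay below it and Fabp5 and Slc27a4 above. This was not particular to adipocytes, since the macrophage and the fibroblast range each held 8 members at both ages, the skeletal muscle range 5 in young and 7 in old dWAT, and the endothelium range 5 at both ages. The share of all genes inside these ranges was not computed, and some ranges are wide (fibroblasts in young dWAT, -2.46 to 1.51). These counts therefore show no likeness of the members to a cell type. Skeletal muscle markers were lower in anagen as well, with medians of -3.06 and -1.99, as were macrophage (-1.47 and -2.18) and fibroblast markers (-1.12 and -2.58) by their medians. Markers of epidermis and outer root sheath were higher in anagen (medians 2.66 and 3.99, all 11 measured), with a summed level of 116 FPKM in OTD and 181 in YTD, against 4269 in OAD and 3148 in YAD. All 14 hair shaft markers measured were higher (6.25 and 7.45), and sebaceous gland markers had medians of 2.14 and 1.21. The highest genes of the lists not yet named were, in the order OTD, YTD, OAD and YAD, Egfl7 of endothelium at 143, 104, 45.8 and 31.9 FPKM, Lyz2 of macrophages at 472, 237, 39.5 and 47.6, and Dcn of fibroblasts at 599, 229.7, 85.8 and 107. Sfn of epidermis stood at 18.0, 36.2, 1420 and 1153 FPKM, and Elovl3 of the sebaceous gland at 0.685, 1.33, 39.3 and 62.2. The part of HF and epidermal cells in the Fabp5 and Slc27a4 levels of anagen libraries was not tested.

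Within the Fabp and Slc27a pairs the balance of both genes differed between phases, and these ratios do not depend on the scaling. The ratio of Fabp5 to Fabp4 was 0.0379 in OTD and 0.0526 in YTD, against 0.804 in OAD and 1.43 in YAD, so that anagen was 27.2-fold above telogen in young and 21.2-fold in old dWAT. The sum of both was 2989 FPKM in OTD and 1971 in YTD, against 2084 in OAD and 1999 in YAD, so that the highest sum was 1.52-fold the lowest. Unlike the ratios, the sums depend on the scaling: under TPM the highest, then YAD, was 1.82-fold the lowest, and under adipocyte-marker scaling 3.28-fold. The ratio of Slc27a4 to Slc27a1 was 0.0559 in OTD and 0.0886 in YTD, against 1.24 in OAD and 1.28 in YAD, 14.5-fold higher in anagen in young and 22.1-fold in old dWAT. Their sum was 103.4 FPKM in OTD and 90.9 in YTD, against 89.1 in OAD and 74.8 in YAD, and its highest value was 2.66-fold its lowest under adipocyte-marker scaling.

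The balance of the lipase and its inhibitor differed with age and by as much with phase. Angptl4 to Lpl was 0.0856 in OTD and 0.0304 in YTD, against 0.126 in OAD and 0.0865 in YAD, so that the ratio was 2.82-fold higher in old dWAT in telogen and 1.46-fold higher in anagen. Between phases the ratio was 2.85-fold higher in anagen in young and 1.47-fold higher in old dWAT. YTD had the lowest ratio of the 4. Gpihbp1 to Lpl was 0.339 in OTD and 0.251 in YTD, against 0.229 in OAD and 0.201 in YAD. Cd36 to Lpl was 1.28 in OTD and 0.661 in YTD, against 0.444 in OAD and 0.490 in YAD, and OTD was 1.93-fold above YTD. Acsl1 to Lpl changed little, from 0.358 in YTD to 0.417 in OAD.

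**Figure D4:**
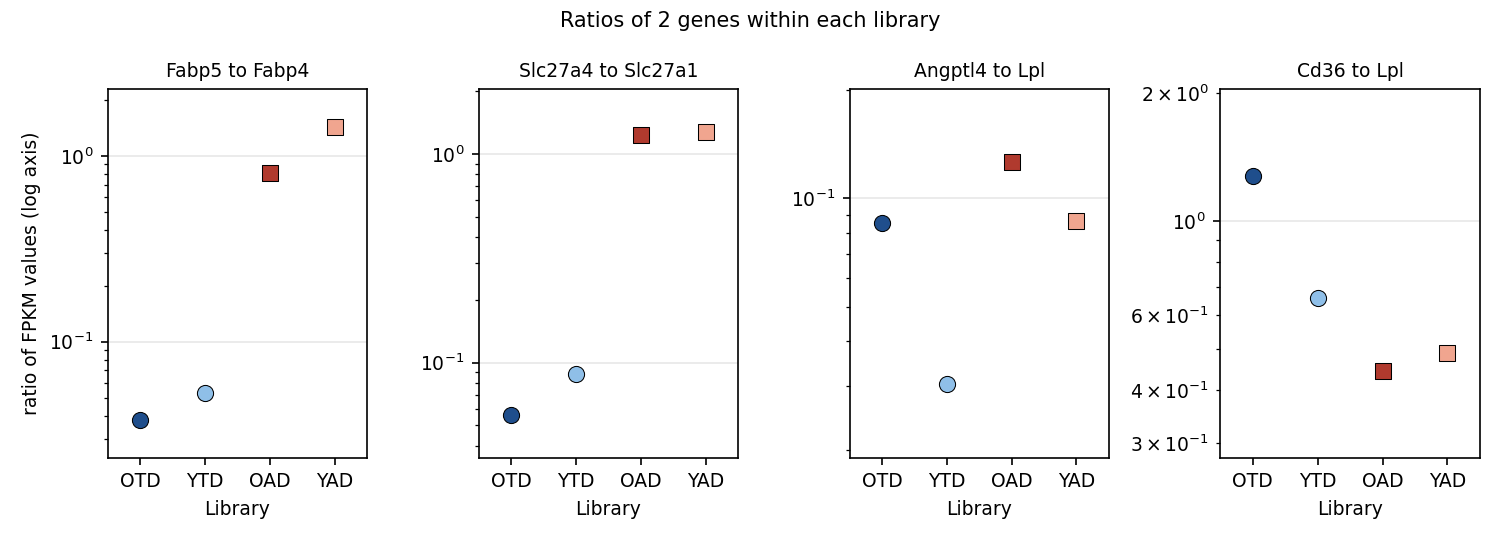
Ratio of the FPKM of 2 genes in the same library (log axes, 1 point per library, circles for telogen and squares for anagen). Fabp5 to Fabp4 and Slc27a4 to Slc27a1 lie far higher in anagen, Angptl4 to Lpl is lowest in YTD (0.0304), and Cd36 to Lpl is highest in OTD (1.28).

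The members that were higher in anagen were also set against Krt5, a keratin of basal keratinocytes, and their ratio to it was not constant. Fabp5 to Krt5 was 5.70 in OTD and 2.82 in YTD, against 1.504 in OAD and 2.51 in YAD, and Slc27a4 to Krt5 was 0.286, 0.211, 0.0798 and 0.0897 in the same order. Krt5 itself stood at 19.2 FPKM in OTD and 35.0 in YTD, against 618 in OAD and 469 in YAD.

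A wider list of 61 genes of lipoprotein handling and fatty acid uptake gave the context. Between the ages none of 44 measured genes in telogen and none of 49 in anagen reached a log2 difference of 1 in either direction, where 2.21% higher and 2.57% lower in telogen and 0.979% and 0.612% in anagen was the share of all genes. Between phases 13 of 51 were higher and 13 lower in anagen in young dWAT, and 12 of 50 were higher and 12 lower in old dWAT. These counts lie near the shares of all genes, 20.6% higher and 21.4% lower in young and 20.6% and 19.9% in old dWAT. The median of the list was 0.01 in young and 0.11 in old dWAT.

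Among lipase regulators, Sdc1, a syndecan that binds lipoproteins, was 17.8 FPKM in YTD and 168 in YAD, and 18.2 in OTD and 196 in OAD (log2 differences of 3.17 and 3.36). Sdc4, another syndecan, was higher in anagen by 1.40 and 1.15, and Lipg, the endothelial lipase, by 2.00 and 1.88, though Lipg stayed at or under 4.78 FPKM. Of the apolipoproteins, Apoe was the most abundant, at 828 to 1331 FPKM, and its difference stayed under 1 in the 4 comparisons. Apoc3 was lower in anagen in young dWAT (-1.15) and Apoc2 in old dWAT (-1.28), both from levels of at most 5.31 FPKM. Of the lipoprotein receptors, Lsr, which also belongs to epithelial junctions, was 2.90 FPKM in YTD, 3.63 in OTD, 80.3 in YAD and 72.9 in OAD, with log2 differences of 4.38 and 3.996. Lrp8 was higher in anagen at both ages (1.52 and 1.47), while Scarb1, the receptor with the highest mean level, differed by -0.87 and -0.93.

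Of the other membrane carriers, those of caveolae were lower in anagen. Cav1, the caveolin of adipocytes and endothelium, was 425 FPKM in OTD and 333 in YTD, against 64.0 in OAD and 65.0 in YAD, with log2 differences of -2.34 in young and -2.71 in old dWAT. Cav2 (-1.91 and -2.61) and Cavin1 (-1.48 and -1.66) followed, and Got2, the mitochondrial aminotransferase also described as a fatty acid binding protein of the plasma membrane, was lower in young dWAT (-1.42). Higher in anagen were Slc27a6, at 0.764 FPKM in YTD, 0.297 in OTD, 19.8 in YAD and 15.0 in OAD, and Mfsd2a, a lysolipid transporter, at 0.808, 0.640, 26.1 and 16.8 FPKM. Their log2 differences were 3.56 and 3.63 for Slc27a6 and 3.91 and 3.44 for Mfsd2a.

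Among the other fatty acid binding proteins, Fabp3, the form of muscle and heart, was 244 FPKM in OTD and 334 in YTD, against 58.8 in OAD and 34.0 in YAD, with log2 differences between phases of -3.26 in young and -2.03 in old dWAT. Its ratio to Ckm, the muscle creatine kinase, was between 0.0243 and 0.0308 in the 4 libraries. Dbi, the acyl-CoA binding protein and the most abundant of this list, stood between 670 and 892 FPKM. Pmp2, between Fabp5 and Fabp4 on chromosome 3, was lower in anagen (-1.51 and -1.55), while Fabp7 (2.30 and 1.64) and Fabp9 (1.53 and 1.68) were higher, as was Fabp12 in young dWAT (1.28), none of the 4 reaching 5 FPKM in any library.

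Of the other synthetases, Acsl3, the one with the highest mean level, was higher in anagen by 1.16 and 1.72, and Acsbg1 by 2.32 and 2.37. Acsl6 (-2.01 and -1.84) and Acss1 (-1.98 and -1.54) were lower at both ages, Acss2 in young dWAT (-1.33) and Acss3 in old dWAT (-1.24). Among the nuclear receptors and cofactors, Pparg, the receptor that drives adipocyte genes, was 31.0 FPKM in OTD and 18.8 in YTD, against 7.90 in OAD and 5.73 in YAD, lower in anagen by -1.56 and -1.85. Nr1h3 (-1.96 and -1.56) and Ppargc1a (-1.23 and -1.39) were lower as well, and Rxra, which had the highest mean level of its list, was 33.3 FPKM in OTD and 52.1 in YTD, against 34.1 in OAD and 33.5 in YAD. These directions held in the 4 rescalings for each gene named as higher or lower in anagen, except that adipocyte-marker scaling turned Apoc3 (0.13), Got2 (0.26), Cavin1 (0.20), Acss2 (0.26) and Ppargc1a (0.07) above 0 in young dWAT. Under that scaling Pparg was left at only -0.02 in young dWAT. Pparg is itself 1 of the 15 adipocyte markers that set this scale, so its value there is no separate check.

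Genes with the most similar profile were sought among 6498 genes with a mean of at least 10 FPKM, by the Euclidean distance between centred log2(FPKM + 1) values over the 4 libraries. A profile of 4 points is shared by many genes, so closeness is a description. Among the members, Lpl and Acsl1 were the closest pair (distance 0.18), followed by Slc27a1 and Acsl1 (0.25). For Lpl the nearest genes were Gpi1 (0.034) and Cox6c (0.054), and for Acsl1 they were Mlycd (0.083) and Plekho1 (0.11). For Slc27a1 they were Rgcc (0.050) and Plin1, the lipid droplet protein perilipin (0.094), and for Fabp4 they were Cd200 (0.14) and Gnai1 (0.16).

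For Gpihbp1 the nearest genes were Dnajb4 (0.019) and Chst1 (0.049), for Vldlr they were Nqo2 (0.038) and Btbd1 (0.048), and for Cd36 they were Slfn2 (0.063) and Rarres2, the adipokine chemerin (0.071). Fabp5 lay nearest to Cdc20 (0.075) and Cdca8 (0.19), a pair of cell division genes, and Slc27a4 to Ephx3 (0.047) and Calm4 (0.13), which are expressed in epidermis. In telogen Cdc20 (1.90 FPKM in OTD and 1.61 in YTD) and Cdca8 (1.84 and 1.63) were low, unlike Fabp5. Ephx3 (1.98 and 2.91) and Calm4 (2.11 and 2.72) were low there too. At such levels the 1 added to FPKM shrinks log2 differences, so these distances rest partly on it. Angptl4 had the most remote neighbours, Jun (0.25), at 102 FPKM in OTD and 54.5 in YTD, against 59.1 in OAD and 43.4 in YAD, and Fkbpl (0.27).

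The scaling of the libraries set the size of the phase differences. Dividing by the summed FPKM (TPM) moved the median of all genes from 0.03 to 0.76 in young and from 0.05 to 0.58 in old dWAT, and scaling on the 15 adipocyte markers moved it to 1.49 and 1.29. The share of all genes past the threshold moved with it, under TPM to 42.1% higher and 9.27% lower in young and 35.3% and 10.8% in old dWAT, and under adipocyte-marker scaling to 64.3% and 3.75% and to 59.9% and 2.86%. The sum without mitochondrial genes gave all-gene medians of 0.21 and -0.10. Relative to that median, the members stood at -1.28 to -1.49 in young and at -1.08 to -1.31 in old dWAT over the deposited values and the 4 rescalings. A rescaling shifts members and all genes by nearly the same amount, so this distance could hardly have moved. Cd36, Gpihbp1 and Vldlr were lower, and Fabp5 and Slc27a4 higher, in anagen at both ages in the deposited values and in the 4 rescalings.

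**Figure D5:**
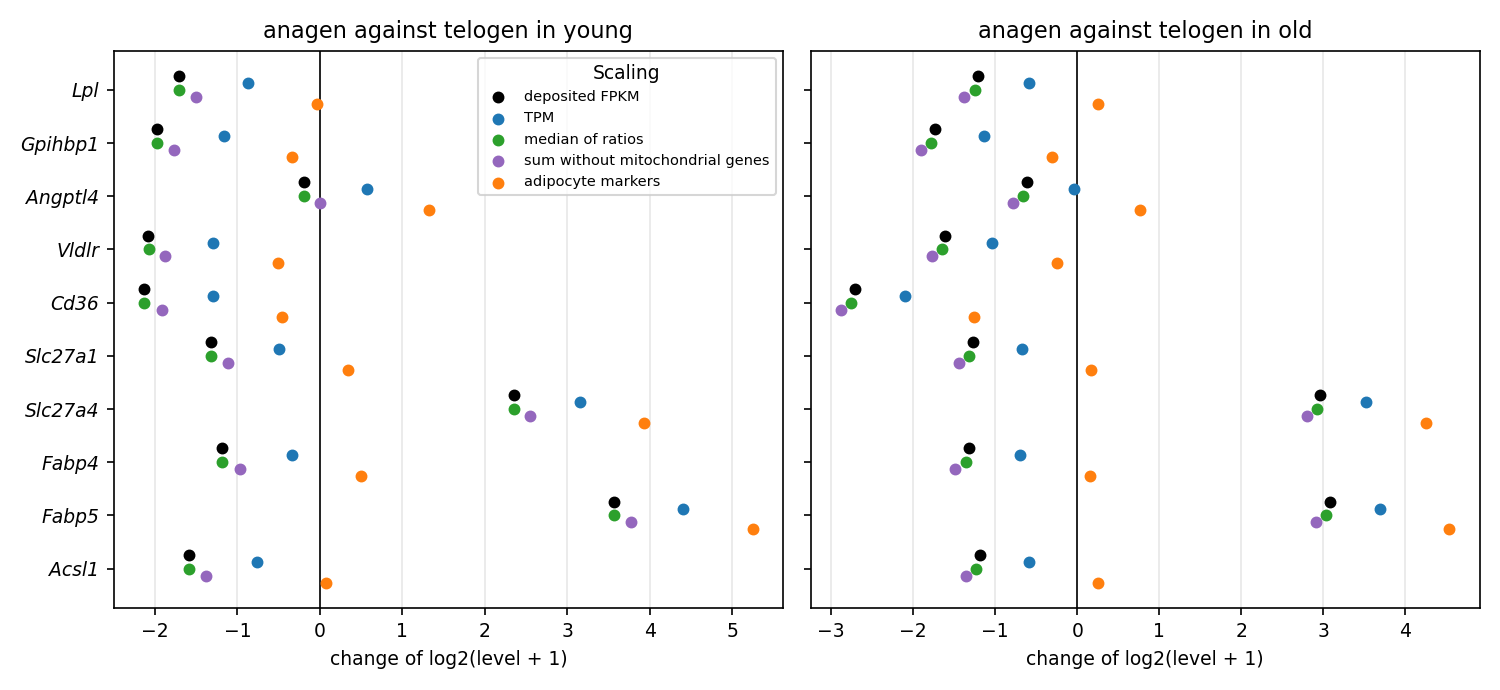
Anagen minus telogen difference of the log2 level of each member in young (left) and old (right) dWAT, with the deposited FPKM and 4 rescalings, 1 point each. Fabp5 and Slc27a4 stay right of 0 and Cd36, Gpihbp1 and Vldlr left of it in all 5, while scaling on adipocyte markers brings Fabp4, Slc27a1 and Acsl1, and in old dWAT Lpl, above 0, by 0.07 to 0.51.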

How the data were processed

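RNA was extracted with Trizol, and libraries were made with standard Illumina protocols. The authors deposited FPKM values per gene with the gene's span and length on GRCm38. Their processing notes name bcl2fastq and TopHat2. The quantifier, annotation, strand handling and scaling between libraries are not given in the sources used here. The listed lengths are the authors' own and 97.0% are multiples of 3, so FPKM is per coding length.

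FPKM values were used as deposited, without a test. A difference is that of log2(FPKM + 1), which understates changes of low genes, and a gene was counted at a difference of at least 1 among genes with FPKM of at least 1 in 1 of the 2 libraries. Depth was estimated from the lowest FPKM times length of features of at least 2000 bases, giving 18.8 to 24.3 (in 1e6 fragments) per library. Intervals are exact binomial 95% intervals on the estimated fragments. Of 22913 genes 21750 were matched to a symbol, and 2 listed marker genes were not analysed here. Named were the members, wider pathway genes past the threshold or highest in their list (some counted genes are not reported here by name), the highest gene of each marker list, and the 2 nearest profiles of each member. Genes set beside a member in a ratio and markers named beside it (Adipoq, Pecam1, Krt5, Ckm) were chosen after values were seen. The members and lists were chosen with earlier results of these data known. Alternatives were a pseudocount of 0.1, 4 rescalings, a 1.5-fold threshold and no filter. The steps were tested on simulated data. Python 3.11.15, numpy 2.4.6, pandas 2.3.3, scipy 1.17.1 and matplotlib 3.10.9 were used.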

Additional observations from a re-analysis of the deposited data

Results flagged for a closer look

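In 4 members the old against young difference pointed in opposite directions in telogen and anagen, with the counting interval of each phase on its own side of 0. The share of all genes that change sign in this way was not computed, so this count cannot be set against a background. Over all genes compared, 5716 of 12982 were above 0 in telogen and 6524 of 13068 in anagen. The difference between the phases was not tested, because each group held 1 library. Telogen minus anagen of the log2 difference was -0.51 for Lpl, lower in OTD than YTD (-0.32) and higher in OAD than YAD (0.18). It was -0.60 for Slc27a4 (-0.37 and 0.22) and -0.40 for Acsl1 (-0.11 and 0.29). For Fabp5 it was 0.49, higher in OTD (0.15) and lower in OAD (-0.34). The opposite signs held for Fabp5 in each scaling tried, although adipocyte-marker scaling left the telogen difference close to 0, at 0.0143. For Lpl, Slc27a4 and Acsl1 they did not hold in each scaling, since adipocyte markers as the scale gave -0.17, -0.13 and -0.06 in anagen.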

How the results depend on the processing

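No paired analysis was possible because there was 1 library per group. Scaling on the adipocyte markers turned the median of the members between phases to 0.21 in both young and old dWAT (0.2054 and 0.2097). It turned Acsl1 to 0.0729 in young and 0.2538 in old dWAT, Fabp4 to 0.5053 and 0.1506, Slc27a1 to 0.3379 and 0.1678, and Lpl in old dWAT to 0.2515, on the log2 scale. It took the number of members past the threshold from 9 to 3 at both ages, of which 0 in young and 1 in old dWAT were lower in anagen, and, between the ages in telogen, from 1 to 0, and it gave age medians of -0.0039 in telogen and -0.1011 in anagen. Of all genes compared between the ages in telogen, 1.09% were then higher and 2.90% lower in OTD. TPM gave phase medians of -0.6297 in young and -0.632 in old dWAT with 5 members past the threshold at each age, 3 of them lower, and an age median of 0.0238 in anagen. Scaling to the sum without mitochondrial genes gave phase medians of -1.2476 and -1.4117 and age medians of 0.3467 in telogen and 0.0893 in anagen. At 1.5-fold, 3 members passed between the ages in telogen and 1 in anagen. The share of all genes past 1.5-fold was not computed, so these counts cannot be set against a background. Each rescaling divides a library by 1 factor, so it shifts all genes of a comparison by nearly the same log2 amount. Under adipocyte-marker scaling the all-gene phase medians rose to 1.49 in young and 1.29 in old dWAT. The all-gene age medians fell under it to -0.159 in telogen and -0.334 in anagen. Why the factors differ between libraries was not tested. The sign of the age difference held in all alternatives tried for 8 of 10 members in telogen and 4 of 10 in anagen. The self-made depth is rough, and no value carries an error between animals.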
